A study of Homo sapiens with 6 samples.

Results

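The genes described here are 10 long noncoding RNA genes that carry small nucleolar RNAs (snoRNAs) in their introns: GAS5, SNHG1, SNHG5, SNHG6, SNHG7, SNHG8, SNHG12, SNHG15, SNHG16 and ZFAS1. They were chosen by name as well known snoRNA host genes, with no threshold on a value but with earlier results of these data known, and all 10 were among the 25702 gene rows of the count tables and among the 15431 genes tested. The RNA came from K562, an established human cell line of chronic myeloid leukaemia with erythroid features. All cells were nucleofected with a pCMV-HA expression plasmid, in which the CMV promoter drives the insert. The plasmid was empty (EV), carried MXD3, or carried STIM1::MXD3, a fusion gene of paediatric acute myeloid leukaemia. Each of these 3 groups had 2 libraries of poly A RNA, from transfections that the study calls independent.

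A snoRNA host gene makes a transcript that yields both intronic and exonic products. The introns are trimmed to snoRNAs, which guide the chemical modification of ribosomal RNA, while the exons are spliced into an RNA that codes for no known stable protein. Several of these spliced RNAs begin with a terminal oligopyrimidine (TOP) tract, as ribosomal protein messengers do, and are degraded by nonsense-mediated decay once ribosomes read their short open reading frames. MXD3 is a transcription factor that pairs with MAX and represses genes with an E-box, CACGTG, the motif that MYC and MAX activate.

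The first bases of the hosts are shown because a TOP tract is read from the start of transcription. Each line gives 10 bases before the RefSeq start and 20 bases from it, 5′ to 3′ on GRCh38.p14, and capitals mark the unbroken run of C and T that begins at the start.
GAS5: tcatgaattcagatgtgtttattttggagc
SNHG1: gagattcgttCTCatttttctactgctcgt
SNHG5: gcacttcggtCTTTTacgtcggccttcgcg
SNHG7: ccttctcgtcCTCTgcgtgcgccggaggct
SNHG8: ctcggcctttCacattcgggaagcgtcggg
SNHG12: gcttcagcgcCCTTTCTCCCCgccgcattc
SNHG16: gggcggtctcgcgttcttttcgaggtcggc
ZFAS1: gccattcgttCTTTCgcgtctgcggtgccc

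A start with C followed by C or T, in a run of at least 5, was found in SNHG5, SNHG12 and ZFAS1, that is 3 of the 8 hosts in the promoter table (37.5%). The same start was present in 43 of 63 ribosomal protein genes (68.3%) and in 4.07% of all 35116 promoters of the table. SNHG6 and SNHG15 have no entry in it. In GAS5 and SNHG16 the first base of the start shown is neither C nor T. Only the start shown was examined for each host, for the TOP tract and for the motifs below. A tract or motif at another start of the same gene would be missed, so these hosts cannot be said to lack a TOP start. The letters TATAA lay 6 to 40 bases before the start, on the sense strand, in SNHG5, SNHG7, SNHG8, SNHG12 and ZFAS1, that is in 62.5% of these hosts, against 4.22% of all promoters and 9.52% of those of ribosomal protein genes. CACGTG, which reads the same on both strands, was found between 250 bases before and 50 bases after the start in SNHG7 alone (12.5%), and in 7.26% of all promoters. A match of letters is a description and not a binding site.

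The intronic products are shown for ZFAS1, whose 3 snoRNAs belong to 1 family, and for 1 of the snoRNAs of GAS5. Capitals mark TGATG, the core of box C near the 5′ end, and CTGA, box D near the 3′ end, the sequence elements of C/D box snoRNAs. The sequences are from the GENCODE annotation on GRCh37, at chr20:47895477-47895565, chr20:47896856-47896946 and chr20:47897220-47897309, plus strand, for the ZFAS1 snoRNAs, and at chr1:173834760-173834824, minus strand, for SNORD78.
SNORD12C: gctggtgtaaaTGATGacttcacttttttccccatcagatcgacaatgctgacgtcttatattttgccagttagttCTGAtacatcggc
SNORD12B: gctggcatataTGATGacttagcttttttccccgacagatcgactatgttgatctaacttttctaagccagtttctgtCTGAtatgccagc
SNORD12: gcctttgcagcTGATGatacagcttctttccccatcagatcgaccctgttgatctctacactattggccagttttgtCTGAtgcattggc
SNORD78: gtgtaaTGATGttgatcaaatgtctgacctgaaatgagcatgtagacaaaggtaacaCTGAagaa

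The libraries held between 53048343 and 63835779 counts, and the hosts together took between 0.103% and 0.153% of them. K562 identity was checked with 6 erythroid genes, all of which were high (HBG1 at 205 to 392 counts-per-million, CPM), whereas the B cell gene MS4A1 had no count and the T cell gene CD3E was at most 0.700 CPM. MXD3 itself was at 9.33 and 11.7 CPM in EV. It was at 2524 and 2162 CPM in MXD3 and at 1975 and 1849 CPM in STIM1::MXD3. These values set EV apart from the other groups as labelled. They cannot tell MXD3 libraries from those of STIM1::MXD3, because both plasmids hold MXD3 sequence. CPM are scaled here with the trimmed mean of M-values (TMM). They are not divided by transcript length, so each gene is compared only with itself. In bulk RNA, fewer cells with a transcript and less transcript per cell cannot be told apart, and no sorting of transfected cells is described for these libraries.

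With MXD3, 9 of the 10 hosts had a lower mean level than in EV, the median log2 fold change being -0.26, and none passed the test. With STIM1::MXD3 the hosts were spread evenly about EV, 5 higher and 5 lower, with a median of 0.00. The median of all genes tested was 0.00 for MXD3 and 0.01 for STIM1::MXD3. ZFAS1, SNHG7 and GAS5 had the lowest fold changes with MXD3. The replicate 1 library of MXD3 was the lowest of the 6 libraries for all 10 hosts. It was the lowest for 14.2% of all genes tested, and without it the median of the hosts with MXD3 was -0.05.

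**Figure D1:**
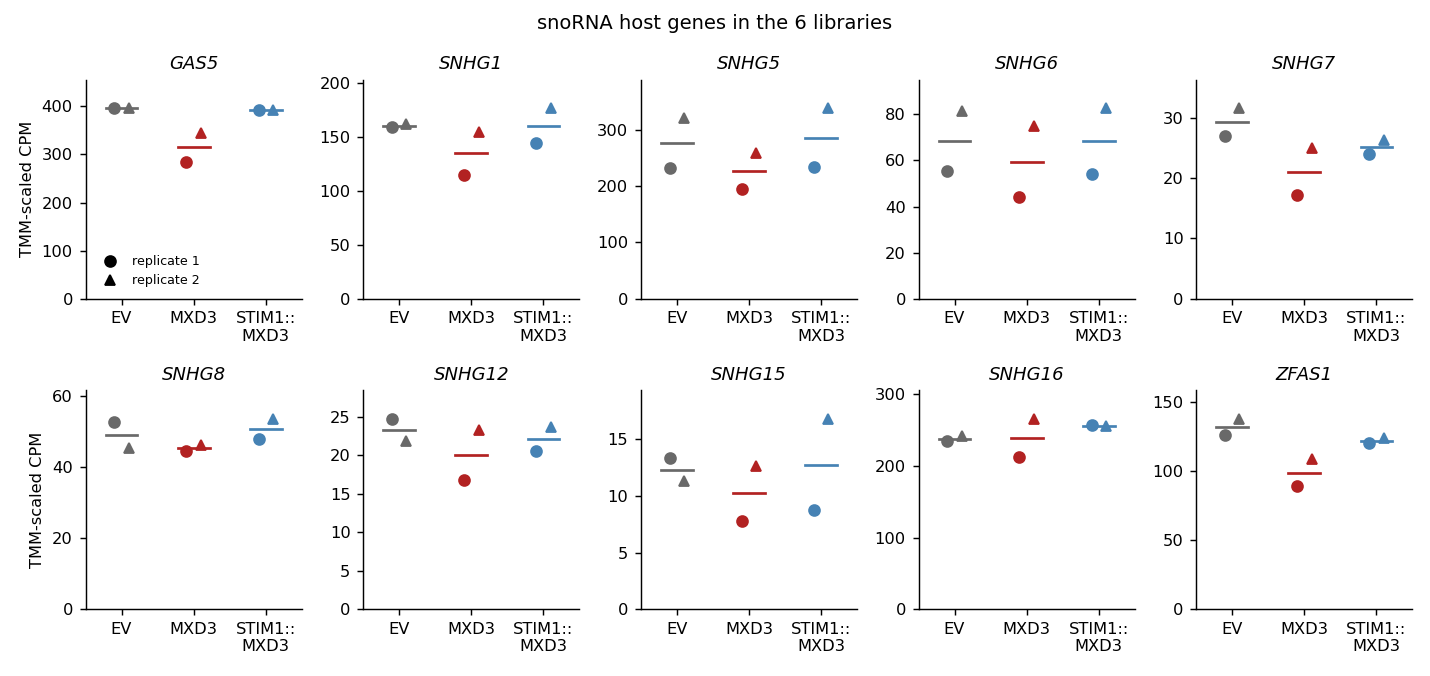
TMM-scaled CPM (y axis, linear, from 0) of each snoRNA host gene in the 3 transfected groups (x axis), with replicate 1 as circles, replicate 2 as triangles and the mean of 2 libraries as a line. The red circle, MXD3 replicate 1, is the lowest point in all 10 panels, and for GAS5 the MXD3 points lie at 285 and 346 CPM below the EV points near 396 CPM.

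ZFAS1 hosts SNORD12, SNORD12B and SNORD12C and lies beside ZNFX1 (Gene ID 441951; GRCh37 chr20:47894715-47916137, plus strand). Its level was 127 and 138 CPM in EV, 89.2 and 109 CPM in MXD3, and 120 and 124 CPM in STIM1::MXD3, with replicate 1 first in each pair. Both MXD3 libraries were therefore below all others, and both STIM1::MXD3 libraries were below both of EV. The means were 132 ± 8.03 CPM (SD, n = 2) in EV, 98.9 ± 13.6 CPM in MXD3 and 122 ± 2.43 CPM in STIM1::MXD3. For MXD3 against EV the log2 fold change was -0.42 ± 0.14 (SE; edgeR adjusted p = 1.00), and the differences within the replicate 1 and replicate 2 pairs were -0.50 and -0.34. When the model also held the replicate number as a block, the fold change was -0.42 ± 0.09 and the adjusted p from edgeR 0.0528. It passed the threshold of 0.05 with DESeq2 and the block (adjusted p = 0.00391) and with length and GC offsets and the block (adjusted p = 0.0429), and over all alternatives the adjusted p lay between 0.00391 and 1.

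ZNFX1, an RNA helicase of antiviral defence, starts 585 bases from ZFAS1 on the opposite strand. Its level was 37.8 and 44.4 CPM in EV, 43.6 and 47.0 CPM in MXD3, and 36.9 and 39.5 CPM in STIM1::MXD3. Its log2 fold change for MXD3 against EV was 0.14 ± 0.14 (edgeR adjusted p = 1.00), beside -0.42 for ZFAS1. The difference between the fold changes of the neighbours was not tested.

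GAS5, named after its accumulation in growth-arrested cells and known to bind the glucocorticoid receptor, carries more snoRNAs than any other of the 10 hosts (Gene ID 60674; GRCh37 chr1:173827697-173838020, minus strand). It was at 396 and 396 CPM in EV, at 285 and 346 CPM in MXD3, and at 392 and 392 CPM in STIM1::MXD3. The EV and STIM1::MXD3 libraries were nearly equal, and the MXD3 libraries lay below them and apart from each other. The means were 396 ± 0.179 CPM (SD, n = 2), 315 ± 43.0 CPM and 392 ± 0.0139 CPM in this order. MXD3 differed from EV by -0.33 ± 0.13 on the log2 scale (edgeR adjusted p = 1.00), with pair differences of -0.48 and -0.20. Its adjusted p was 0.130 in edgeR with the block and 0.0353 in DESeq2 with the block. STIM1::MXD3 differed from EV by -0.02 ± 0.13. The protein-coding gene ZBTB37, which starts 391 bases from GAS5 on the other strand, was at 2.98 to 5.98 CPM, with a log2 fold change of 0.13 ± 0.42 for MXD3 against EV.

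SNHG7 (Gene ID 84973; GRCh37 chr9:139615818-139622636, minus strand) is the host with the CACGTG match. Its level was 27.0 and 31.6 CPM in EV, 17.1 and 25.0 CPM in MXD3, and 24.0 and 26.3 CPM in STIM1::MXD3. The MXD3 and STIM1::MXD3 groups both lay below EV without overlap, while they overlapped each other. The log2 fold change against EV was -0.48 ± 0.21 for MXD3, with pair differences of -0.66 and -0.34, and -0.22 ± 0.21 for STIM1::MXD3, with pair differences of -0.17 and -0.26 (edgeR adjusted p = 1.00 for both). With the block, the adjusted p of MXD3 against EV was 0.113 in edgeR and 0.0348 in DESeq2.

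SNHG5, host of SNORD50A and SNORD50B (Gene ID 387066; GRCh37 chr6:86360209-86388650, minus strand), separated by replicate number rather than by plasmid. The replicate 1 libraries held 232, 195 and 233 CPM in EV, MXD3 and STIM1::MXD3, and the replicate 2 libraries 321, 258 and 338 CPM. Every replicate 2 library was above every replicate 1 library. MXD3 was nevertheless the lowest group within each replicate, with pair differences from EV of -0.25 and -0.31. The log2 fold change was -0.29 ± 0.25 without the block and -0.28 ± 0.08 with it (edgeR adjusted p = 1.00 and 0.139), and the adjusted p was 0.0478 in DESeq2 with the block.

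SNHG1, which carries SNORD22 and SNORD25 to SNORD31 (Gene ID 23642; GRCh37 chr11:62619450-62623425, minus strand), was at 159 and 162 CPM in EV, 115 and 155 CPM in MXD3, and 145 and 177 CPM in STIM1::MXD3. Both MXD3 libraries were below both of EV, and the STIM1::MXD3 libraries lay on either side of EV. The log2 fold change for MXD3 against EV was -0.25 ± 0.18, made up of -0.47 between the replicate 1 libraries and -0.06 between those of replicate 2. SNHG6, host of SNORD87, was at 55.6 and 81.4 CPM in EV, 44.1 and 74.9 CPM in MXD3, and 54.2 and 82.7 CPM in STIM1::MXD3. Here too the replicates lay further apart than the groups, and MXD3 was the lowest group within each replicate, with pair differences from EV of -0.33 and -0.12. The log2 fold change of SNHG6 was -0.20 ± 0.32 without the block and -0.23 ± 0.09 with it (edgeR adjusted p = 1.00 and 0.300).

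In the remaining hosts the MXD3 libraries overlapped those of EV. SNHG12 (GRCh37 chr1:28905050-28909644, minus strand), which carries 4 snoRNAs and has the longest TOP tract of the starts shown, was at 24.7 and 21.8 CPM in EV, 16.8 and 23.3 CPM in MXD3, and 20.6 and 23.7 CPM in STIM1::MXD3. SNHG15 (chr7:45022618-45026560, minus strand), host of SNORA9, was at 13.3 and 11.4 CPM, 7.81 and 12.6 CPM, and 8.74 and 16.8 CPM in the same order. Both genes were lower than EV in the replicate 1 pairs of both plasmids and higher in the replicate 2 pairs. SNHG15 had the widest pair differences of the hosts, -0.76 and 0.15 with MXD3 and -0.60 and 0.56 with STIM1::MXD3.

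SNHG8 (chr4:119199858-119206471, plus strand), host of SNORA24, was at 52.7 and 45.4 CPM in EV, 44.5 and 46.2 CPM in MXD3, and 48.0 and 53.6 CPM in STIM1::MXD3. SNHG16 (chr17:74553809-74667067, plus strand), host of SNORD1A, SNORD1B and SNORD1C, was at 234 and 241 CPM in EV, 211 and 265 CPM in MXD3, and 256 and 254 CPM in STIM1::MXD3. SNHG16 was the host with the smallest fold change with MXD3, 0.00 ± 0.14. It was the one host whose STIM1::MXD3 libraries both lay above EV, as they did for 1845 of all 15431 genes tested. Its log2 fold change there was 0.10 ± 0.14 (edgeR adjusted p = 1.00).

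**Figure D2:**
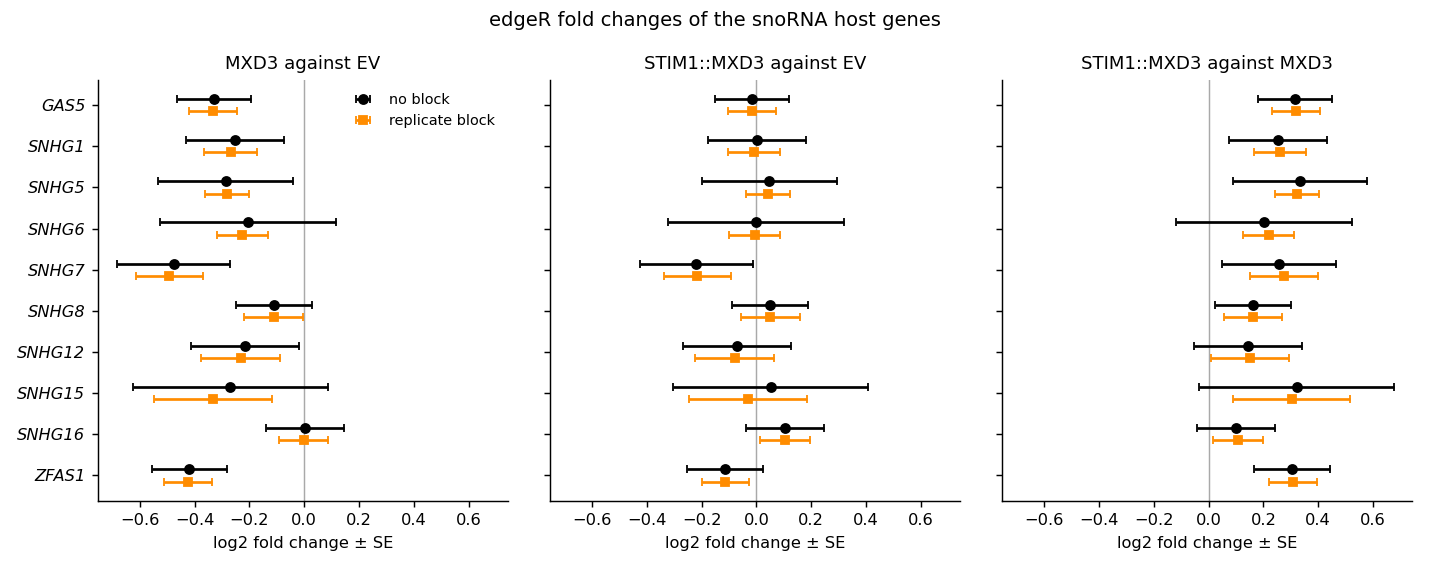
edgeR log2 fold change of each host with its SE (x axis) in the 3 comparisons, without (black circles) and with (orange squares) a block for the replicate number. For MXD3 against EV the estimates lie between -0.48 (SNHG7) and 0.00 (SNHG16), and the SE of SNHG5 is 0.25 without and 0.08 with the block.

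In MXD3 against EV, no host passed the edgeR test, where 1 gene in all did (0.00648% of those tested, the gene being MXD3). Before adjustment 2 hosts, ZFAS1 and GAS5, had a p under 0.05, as did 1.86% of all genes. DESeq2 without the block called 0.0194% of all genes and no host. With the replicate block, 45 genes passed (0.292%), again without a host, and 6 of the 10 hosts were lower at an unadjusted p under 0.05, against 6.99% of all genes tested. With offsets and the block ZFAS1 was the 1 host called, among 0.240% of all genes. With DESeq2 and the block, 4 of the 10 hosts passed, namely ZFAS1, GAS5, SNHG7 and SNHG5, where 1.54% of all genes did. Both MXD3 libraries lay below both EV libraries in 4 hosts (14.8% of all genes), and 6 hosts were lower in both replicate pairs (31.5% of all genes). The median over the hosts was -0.47 between the replicate 1 libraries and -0.09 between those of replicate 2. Leaving out 1 library at a time moved it between -0.50 and -0.05. The value nearest 0 was the one without MXD3 replicate 1.

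**Figure D3:**
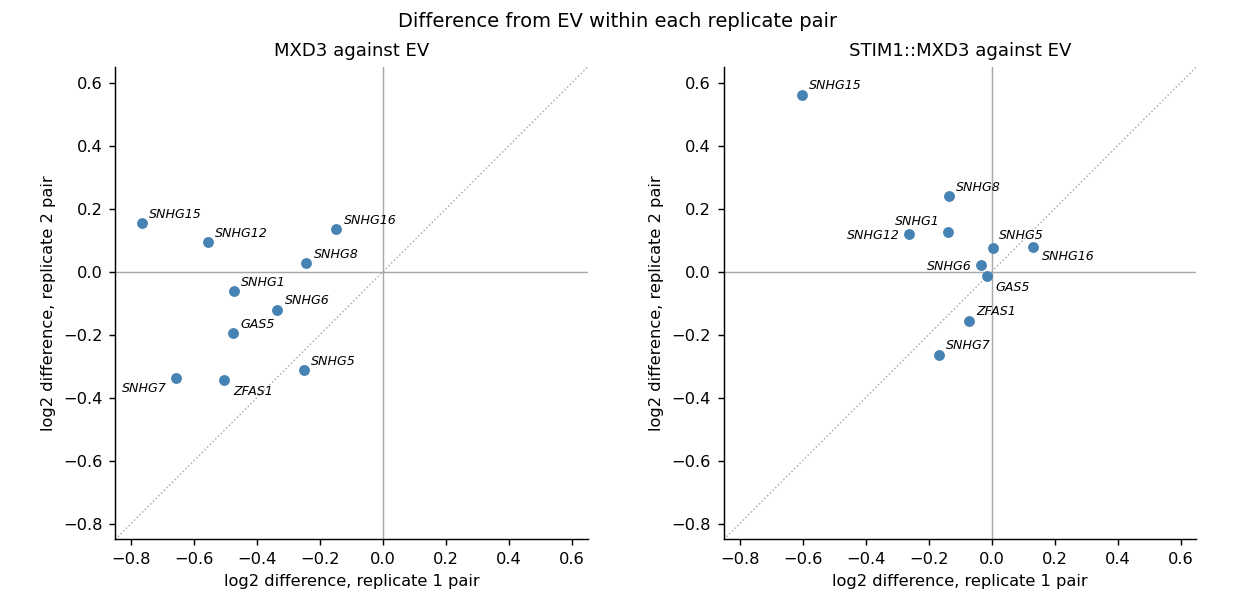
log2 difference from EV within the replicate 1 pair (x axis) and the replicate 2 pair (y axis) for each host, with MXD3 on the left and STIM1::MXD3 on the right; the dotted line marks equal differences. With MXD3 all 10 points lie left of 0, and 6 of them also lie below 0, whereas with STIM1::MXD3 the points surround 0, with SNHG15 at -0.60 and 0.56.

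In STIM1::MXD3 against EV, no host passed the test in edgeR or DESeq2, with or without the block. Over all genes 0.00648% of genes passed in edgeR, 0.0194% in edgeR with the block, 0.0194% in DESeq2 and 0.123% in DESeq2 with the block. No host had an unadjusted p under 0.05 in edgeR, without the block (0.953% of all genes) or with it (8.50%). The log2 fold changes ran from -0.22 (SNHG7) to 0.10 (SNHG16). Both STIM1::MXD3 libraries lay above both EV libraries in 1 host, SNHG16 (1845 of all 15431 genes). They lay below both in 3 hosts, GAS5, SNHG7 and ZFAS1 (1546 of all 15431 genes). The spread of the single hosts about EV was widest for SNHG15, whose pairs had opposite signs.

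The fusion and MXD3 were also compared with each other, using the same MXD3 libraries as above. All 10 hosts had a higher mean in STIM1::MXD3, with log2 fold changes between 0.10 and 0.33 and a median of 0.26, where the median of all genes was 0.01. No host passed the edgeR test, and neither did any other gene (0%), with 156 genes and no host at an unadjusted p under 0.05 (1.01%). With DESeq2 1 gene passed (0.00648%), and with DESeq2 and the block 0.0324% of genes, again without a host. In DESeq2 with the block, SNHG6, SNHG7, SNHG8, SNHG12 and SNHG15 had no adjusted p in this comparison and so could not pass. With the block in edgeR, 1 gene passed and 6 hosts were higher at an unadjusted p under 0.05, against 3.21% of all genes. SNHG5 had the smallest p of these (0.32 ± 0.08 with the block, adjusted p = 0.569), and its adjusted p in DESeq2 with the block was 0.0595. GAS5, SNHG8 and ZFAS1 were higher without overlap (10.9% of all genes), and 9 hosts were higher in both pairs (27.5% of all genes), SNHG16 being the exception. Without MXD3 replicate 1 the median was 0.02, with 6 hosts higher and 4 lower, and without STIM1::MXD3 replicate 2 it was 0.08.

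Several hosts differed between the replicate numbers that the 3 groups share. In the fit with group and replicate, SNHG6, SNHG5, SNHG7 and SNHG1 were higher in replicate 2 (4 of 10 hosts, against 13.1% of all genes higher and 16.1% lower). The log2 difference was 0.64 ± 0.08 for SNHG6 (edgeR adjusted p = 3.61e-05) and 0.47 ± 0.07 for SNHG5 (adjusted p = 1.17e-04). SNHG7 rose by 0.30 ± 0.10 (adjusted p = 0.0356) and SNHG1 by 0.25 ± 0.08 (adjusted p = 0.0250). All 4 were higher in replicate 2 in each of the 3 groups, as was ZFAS1 (28.6% of all genes), and SNHG5 and SNHG6 had all 3 replicate 2 libraries above all 3 of replicate 1 (18.0% of all genes). SNHG15 had the same difference as SNHG5, 0.47 ± 0.18, and did not pass (adjusted p = 0.0560). It passed with DESeq2 and the block (adjusted p = 0.0446), and in edgeR without a filter (0.00202) and with counts divided by 2 (0.0448). Its difference was 0.82 without either EV library. A group left with 1 library adds nothing to the replicate term. Both fits therefore rest on the MXD3 and STIM1::MXD3 pairs and leave out EV, where the log2 CPM difference of SNHG15 was -0.23. SNHG8, at 0.00 ± 0.09, and GAS5, at 0.09 ± 0.07, did not pass. ZFAS1, at 0.15, did not pass either (edgeR adjusted p = 0.132), but did at a mean CPM of at least 5 (0.19, adjusted p = 0.0375). Its difference was 0.22 without STIM1::MXD3 replicate 2. That of SNHG12 was 0.16 with all libraries and 0.33 with either EV library left out. For ZFAS1 and SNHG12, fits that left 1 library in a group are given by their difference only. Whether these genes passed there is not stated here. Over all settings the number of hosts called ran from 2 to 6. SNHG1 and SNHG7 no longer passed without either MXD3 library, and SNHG1 also without STIM1::MXD3 replicate 1. What the replicate number stands for is not given in the labels.

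**Figure D4:**
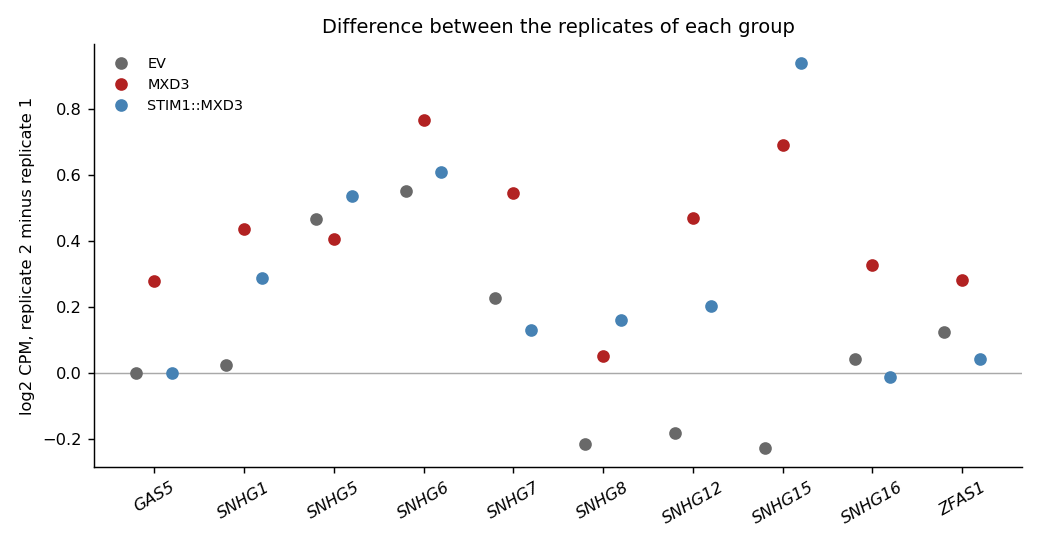
log2 CPM of replicate 2 minus that of replicate 1 (y axis) for each host (x axis), with 1 point for each group. SNHG5 and SNHG6 lie above 0.4 in all 3 groups, while SNHG8, SNHG12 and SNHG15 lie below 0 in EV and above 0 with MXD3 and with STIM1::MXD3.

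The other genes of snoRNA production were examined by list. In all lists below, the smallest p is that of the edgeR fit with the block. Fold changes against EV are from the fit without the block unless the block is named. Of 18 other noncoding snoRNA hosts, 14 had a row and 12 were tested, and 8 of the 12 were lower with MXD3 than in EV (median log2 fold change -0.14). EPB41L4A-AS1, a host outside the SNHG series, was at 43.5 and 41.3 CPM in EV, 26.2 and 30.9 CPM in MXD3, and 39.9 and 38.9 CPM in STIM1::MXD3. It did not pass without the block (edgeR adjusted p = 1.00) and fell by 0.57 on the log2 scale with it (SE 0.11; adjusted p = 0.0466). It passed with DESeq2 and the block as well (adjusted p = 0.00170) and with offsets and the block (adjusted p = 0.0327), and in no other setting. SNHG10, at 3.79 and 6.28 CPM in EV and 5.51 and 8.87 CPM in MXD3, had the opposite sign, 0.51 ± 0.46. With STIM1::MXD3 the median of the 12 was 0.05. The 2 with the smallest p there, DANCR at 0.13 ± 0.19 and SNHG4 at 0.25 ± 0.24, did not pass.

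Coding genes that carry snoRNAs but do not code for ribosomal proteins were centred near 0, with medians over 24 genes of 0.04 for MXD3 and 0.07 for STIM1::MXD3. None passed. In MXD3, TAF1D, a subunit of the RNA polymerase I factor SL1, had the smallest p (-0.49 ± 0.25; 105 and 78.1 CPM in EV, 68.8 and 61.2 CPM in MXD3), followed by EEF2, the translation elongation factor (-0.25 ± 0.14). With STIM1::MXD3 these were TAF1D at -0.29 ± 0.25 and GNL3, or nucleostemin, at 0.23 ± 0.14.

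Ribosomal protein genes share the TOP start with some of the hosts, and some of them also carry snoRNAs. With MXD3 the median log2 fold change was -0.24 over the 29 ribosomal protein genes with a snoRNA inside and -0.24 over the 50 without, beside -0.26 for the 10 hosts. Their median in the replicate 1 and 2 pairs was -0.29 and -0.19 over all 79. With STIM1::MXD3 the medians were 0.00 for both kinds. With MXD3, 78 of the 79 were lower than EV and 1 was higher. In both replicate pairs 78 were lower (31.5% of all genes), and 47 were lower without overlap (14.8% of all genes). In edgeR with the block 64 had an unadjusted p under 0.05, as did 2149 of all 15431 genes tested. No ribosomal protein gene passed in edgeR, with or without the block. RPS15A (-0.39 ± 0.12) and RPS21 (-0.34 ± 0.14) had the smallest p with MXD3, and RPL23 (0.13 ± 0.19) was among the 2 with the smallest p with STIM1::MXD3.

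Of 17 proteins that bind and assemble snoRNAs, 11 were higher and 6 lower than EV with MXD3 (median 0.05), and 16 were higher and 1 lower with STIM1::MXD3 (median 0.10). None passed. NUFIP1, an assembly factor of C/D box particles, was at 7.64 and 8.10 CPM in EV, 10.9 and 9.76 CPM in MXD3, and 11.8 and 9.89 CPM in STIM1::MXD3, with log2 fold changes of 0.39 ± 0.19 and 0.46 ± 0.19. ZNHIT6, another assembly factor, had 0.36 ± 0.15 with MXD3, and NHP2, a core protein of H/ACA particles, 0.21 ± 0.15 with STIM1::MXD3. Of the 10 factors of nonsense-mediated decay, which degrades several host RNAs, 5 were higher and 5 lower with MXD3 (median 0.00), and 9 were lower with STIM1::MXD3 (median -0.10). None passed. UPF2 at -0.20 ± 0.17 was among the 2 with the smallest p with STIM1::MXD3, and SMG9 at -0.17 ± 0.12 and SMG6 at 0.19 ± 0.16 with MXD3.

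Long noncoding RNA genes outside these lists had a median of 0.10 with MXD3 and 0.09 with STIM1::MXD3 over 757 genes tested, and of 0.37 between replicate 2 and replicate 1.

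**Figure D5:**
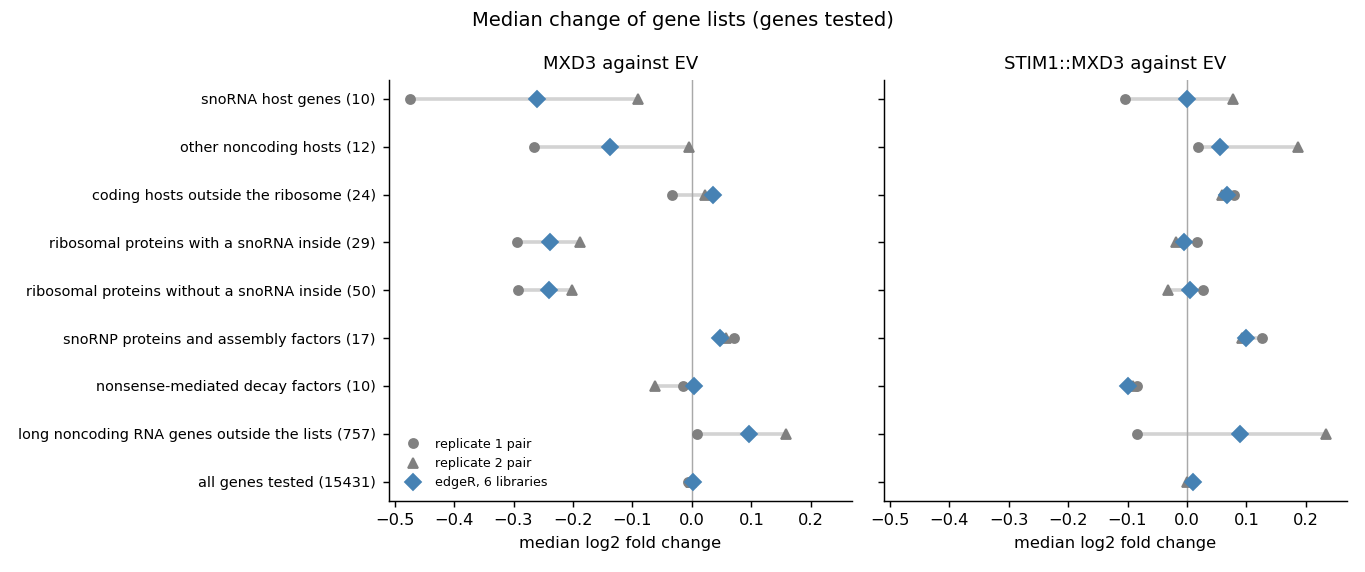
Median log2 fold change against EV (x axis) of the hosts and of the other gene lists (y axis, with the number tested), over 6 libraries (diamonds) and within the replicate 1 (circles) and replicate 2 (triangles) pairs. With MXD3 the hosts and both kinds of ribosomal protein gene lie at -0.26, -0.24 and -0.24, and the pairs of the hosts lie at -0.47 and -0.09.

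The profile of the hosts over the 6 libraries was compared with those of other genes as a description. The mean centred log2 CPM of the hosts was 0.06 and 0.14 in EV, -0.38 and 0.04 in MXD3, and -0.07 and 0.22 in STIM1::MXD3. Among 9172 genes with a mean of at least 10 CPM, those most like it by Pearson's r over the 6 libraries included RGS3 (0.993), NONO (0.991), DDIT3 (0.985) and CHCHD6 (0.980). The 6 points share the groups, the replicate split and the scaling. The profiles of GAS5 (r = 0.983) and ZFAS1 (r = 0.978) were closest to the mean of the ribosomal proteins, and that of SNHG8 (r = 0.545) was farthest.

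The snoRNAs themselves could be followed only in part. By RefSeq spans 37 snoRNAs lie inside the 10 hosts, 35 had a row in the tables and 27 were tested. Mature snoRNAs have no poly A tail, so their rows in poly A libraries do not measure the mature RNA. The 10 rows inside GAS5 held 706 and 563 counts in EV, 821 and 460 in MXD3, and 730 and 437 in STIM1::MXD3. The GAS5 row is separate, and whether reads of these rows were also counted in it is not given in the sources used here. Set against the GAS5 row, these counts are a ratio of 1.77% to 4.49%. In each group replicate 1 was the higher. For the 4 rows inside SNHG12 the ratio to the separate SNHG12 row was 7.27% to 17.1%, and those inside SNHG7 had no count. None of the 27 passed in a comparison of groups with edgeR or DESeq2, with or without the block. The 1 row with an unadjusted p under 0.05 in STIM1::MXD3 against EV in the edgeR fit with the block was SNORA16A, at -1.29 ± 0.53, where 8.50% of all genes had such a p, and MXD3 against EV had 0 such rows and STIM1::MXD3 against MXD3 had 1. Between replicates, 3 of the 27 rows passed in edgeR, 1 higher and 2 lower in replicate 2, where 13.1% of all genes were higher and 16.1% lower. SNORD80 (-0.88 ± 0.18, adjusted p = 0.00213) and SNORD47 (-1.42 ± 0.39, adjusted p = 0.0117), both inside GAS5, were lower in replicate 2, where GAS5 itself differed by 0.09. SNORA61, inside SNHG12, was higher by 1.09 ± 0.31 (adjusted p = 0.0135).

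Genes on the opposite strand overlap 5 of the hosts beside SNHG6 in the GENCODE annotation, among them PRSS12 with SNHG8 and ST6GALNAC1 and ST6GALNAC2 with SNHG16. The use of strand in counting is not given in the sources used here, so the counts of a host and of its opposite-strand partner cannot be told apart where they overlap.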

How the data were processed

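K562 RNA was sequenced in 6 libraries, 2 in each of 3 groups, with groups and replicate numbers taken from the sample labels. The authors deposited 1 table of raw counts per library, with NCBI Gene identifiers as rows. Libraries were enriched for poly A RNA per the labels, the study describes read pairs aligned to hg19, and the submitters' processing notes name HISAT2 2.2.1 and featureCounts 2.0.1. The annotation, use of strand and counting of pairs are not given in the sources used here. Of 25702 rows, 23696 (92.2%) were matched to a symbol.

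Genes were kept with filterByExpr (15431 genes) and scaled with TMM. Groups were compared with the two-sided quasi-likelihood test of edgeR 4.0.16 in R 4.3.3, in 1 fit over all libraries without covariates, with Benjamini-Hochberg adjustment over all genes and a threshold of 0.05. The SD is over 2 libraries, and log2 CPM used a prior count of 2. P-values measure the spread between these transfections, and the fits were tested on simulated data. Alternatives were DESeq2 1.42.0, its size factors, the replicate block, no filter, a mean CPM of at least 5, counts divided by 2, offsets for length and GC content, and leaving out each library. Replicate numbers were taken to pair libraries, as a hint from the data: over all genes tested, the departures of libraries with the same number from the mean of their group had r = 0.270 (EV, MXD3), 0.364 (EV, STIM1::MXD3) and 0.450 (MXD3, STIM1::MXD3).

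The hosts and lists were chosen with earlier results of these data known. Named from other lists were the 2 genes with the smallest p against EV with the block, opposite-strand genes starting within 1000 bases of a host, snoRNA rows inside hosts, and the 5 genes with the most similar profile; some genes that this rule names are not reported here. The split of ribosomal protein genes by snoRNA content and the list of other long noncoding RNA genes were added later. Promoters were taken from RefSeq GRCh38.p14 and snoRNA sequences from GENCODE on GRCh37.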

Additional observations from a re-analysis of the deposited data

Results flagged for a closer look

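SNHG5 lay on opposite sides of EV with the 2 plasmids in every library pair: both STIM1::MXD3 libraries were above the EV library of the same number (log2 differences of 0.0050 and 0.08), and both MXD3 libraries were below it (-0.25 and -0.31). The difference itself, STIM1::MXD3 against MXD3, was 0.33 on the log2 scale and did not pass in edgeR (adjusted p = 1.00). It did not pass with the replicate block either (adjusted p = 0.569). The first STIM1::MXD3 pair was nearly equal, at 232 CPM in EV and 233 CPM in STIM1::MXD3. The fold change of STIM1::MXD3 against EV, 0.05, turned to -0.011 with length and GC offsets and -0.019 with the block added, and ranged from -0.26 to 0.30 on leaving out 1 library.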

How the results depend on the processing

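Each group had 2 libraries, and the median of the hosts for MXD3 against EV was -0.26 with all of them and -0.05 without MXD3 replicate 1. Of 450 values of single hosts under other settings, 404 kept direction and side of the threshold, 5 gained the threshold and 41 changed sign. The genes called numbered 1 for STIM1::MXD3 against EV, with 3 under the replicate block, DESeq2, or offsets with the block, 19 under DESeq2 with the block and 2 without a filter. For MXD3 against EV the number was 1, with 45 under the block, 3 under DESeq2, 238 under DESeq2 with the block and 37 under offsets with the block. For STIM1::MXD3 against MXD3 it was 0, with 1 under the block, DESeq2, no filter, or offsets with the block, and 5 under DESeq2 with the block. Leaving out 1 library gave 1 to 1, 1 to 2 and 0 to 0 genes, and 2580 to 4424 between replicates, where all libraries gave 4499. Beside EPB41L4A-AS1, the replicate block changed no call of a named gene in edgeR without offsets. With offsets, adding the block also brought ZFAS1 under the threshold for MXD3 against EV (edgeR adjusted p = 0.0429).

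The median of the hosts ranged on leaving out 1 library from -0.17 to 0.11 for STIM1::MXD3 against EV, from -0.50 to -0.05 for MXD3 against EV and from 0.021 to 0.48 for STIM1::MXD3 against MXD3. For STIM1::MXD3 against EV, SNHG1 was -0.0087 under the block, -0.0056 under DESeq2 or its size factors, -0.016 under DESeq2 with the block, -0.064 under offsets and -0.077 under offsets with the block. SNHG5 was -0.011 under offsets and -0.019 with the block too, SNHG6 0.0025 at a mean CPM of at least 5, and SNHG15 -0.030 under the block, -0.044 under DESeq2 with the block and -0.047 under offsets with the block. For MXD3 against EV, SNHG16 was -0.0027 under the block, -0.00065 under DESeq2, -0.0066 under DESeq2 with the block and -0.00063 under its size factors. Main values of these 5 hosts lay within 0.06 of 0, and the cause of the changes was not tested.

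Leaving out 1 library also turned signs. For STIM1::MXD3 against EV the ranges were -0.16 to 0.14 (SNHG1), -0.26 to 0.30 (SNHG5), -0.35 to 0.30 (SNHG6), -0.053 to 0.16 (SNHG8), -0.18 to 0.028 (SNHG12) and -0.50 to 0.45 (SNHG15). For MXD3 against EV they were -0.65 to 0.14 (SNHG6), -0.21 to 0.0016 (SNHG8), -0.48 to 0.015 (SNHG12), -0.67 to 0.051 (SNHG15) and -0.18 to 0.17 (SNHG16). For STIM1::MXD3 against MXD3 they were -0.15 to 0.65 (SNHG6), -0.0036 to 0.57 (SNHG7), -0.085 to 0.41 (SNHG12), -0.24 to 0.72 (SNHG15) and -0.066 to 0.28 (SNHG16). A group left with 1 library was assumed to vary as the others.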
